A study of Mus musculus with 16 samples.

Results

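The calcium/calmodulin-dependent protein kinases were followed here as 10 genes, taken by name: Camkk1 and Camkk2, Camk1, Camk1d and Camk1g, Camk4, and Camk2a, Camk2b, Camk2d and Camk2g. They are 10 of the 55385 genes in each deposited table, and all 10 were among the 17222 genes that passed the filter on low counts and were tested. After Dnmt3a1 knockdown, Camk2d (the δ subunit of CaMKII) rose and Camk2b (the β subunit) fell, in baseline and with bicuculline, and Camkk2 rose in baseline. The baseline call of Camk2b was lost in 5 of 25 alternative fits. With bicuculline in the control, Camk1d and Camk1g rose by 0.3 and 0.33 on the log2 scale and Camk2d by 0.21, and these 3 calls and that of Camkk2 depended on how the libraries were scaled.

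When calcium enters an active neuron it binds calmodulin, and the loaded calmodulin opens these kinases. Camkk1 and Camkk2 encode the upstream kinases, which phosphorylate and fully activate CaMKI and CaMKIV; CaMKK2 also phosphorylates AMP-activated kinase. CaMKII is built differently: its α, β, γ and δ subunits assemble into large holoenzymes that phosphorylate themselves and stay active after calcium has fallen, and in the hippocampus the α and β subunits prevail and are known for their part in synaptic plasticity. CaMKIV sits largely in the nucleus, where CREB is among its substrates.

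RNA was measured in primary hippocampal cultures prepared from C57Bl/6N mice at postnatal day 0. Every culture was infected on day in vitro 4 with an adeno-associated virus that drives an shRNA from the U6 promoter and GFP from the chicken β-actin promoter, and was used between days in vitro 9 and 11. The shRNA was either a control sequence (Control-shRNA, shControl in the labels) or one directed at Dnmt3a1, the long isoform of the DNA methyltransferase Dnmt3a (Dnmt3a1-shRNA2, shDnmt3a1 in the labels), so the knockdown rests on 1 construct. Cultures were left in baseline or treated for 4 h with 50 µM bicuculline, a blocker of GABA-A receptors that sets off bursts of action potentials. Each of the 4 combinations has 4 libraries from separate neuronal preparations, 16 in all.

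The 4 libraries of a group differed from each other by more than sampling noise, and library totals lay between 28912697 and 29586355 estimated counts. The targeted gene was checked first. Dnmt3a was at 293 to 324 CPM (counts relative to the library total, scaled by the TMM method) in Control-shRNA baseline and at 39.4 to 48.1 CPM in Dnmt3a1-shRNA2 baseline, and at 311 to 338 against 43.8 to 47.8 CPM with bicuculline. The groups did not overlap, with 14.2% and 13.9% of the control level left (exact permutation test of log2 CPM, two-sided, n = 4 against 4, p = 0.0286 in each condition, the smallest p this design allows). The counts are per gene and do not separate Dnmt3a1 from the short isoform. The general neuronal marker Rbfox3 was at 156 to 207 CPM over the 16 libraries, whereas the microglial marker Cx3cr1 stayed at or below 0.193 CPM, and no marker searched was at 0 in every library.

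On the mouse genome GRCm38, Camkk1 lies on chromosome 11 from 73019008 to 73042073 and Camk2b on the same chromosome from 5969644 to 6066362, Camkk2 on chromosome 5 from 122731170 to 122779409, Camk2d on chromosome 3 from 126596302 to 126846326, and Camk2g on chromosome 14 from 20734875 to 20794088. Camk1 lies on chromosome 6 from 113334124 to 113343984, Camk1d on chromosome 2 from 5293457 to 5714515, and Camk1g on chromosome 1 from 193346346 to 193370298. In the GENCODE annotation, exons of Camk1 share 232 bases (3.88% of its exon bases) with Ogg1 and exons of Camk4 share 72 bases (2.21%) with 2310026I22Rik, both on the opposite strand. Whether the quantification used strand is not given in the sources used here, so reads from these stretches cannot be told apart.

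Since Dnmt3a methylates cytosines in CG pairs, the promoters of the 5 genes that passed a test are shown with every CG in capitals. The sequences come from RefSeq (GRCm38.p6), run 5′ to 3′ on the strand of the gene and cover the bases from 250 to 21 before the annotated start, 230 in all. Camk2d and Camk2b are given because they moved after knockdown in both conditions, Camkk2 because it moved in baseline, and Camk1d and Camk1g because they moved with bicuculline.
Camk2d, chr3:126596701-126596930, plus strand: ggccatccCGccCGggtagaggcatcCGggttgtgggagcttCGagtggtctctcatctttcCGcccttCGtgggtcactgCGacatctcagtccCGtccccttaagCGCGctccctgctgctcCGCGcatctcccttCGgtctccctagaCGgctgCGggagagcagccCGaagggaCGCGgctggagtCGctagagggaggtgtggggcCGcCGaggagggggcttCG
Camk2b, chr11:6065769-6065998, minus strand: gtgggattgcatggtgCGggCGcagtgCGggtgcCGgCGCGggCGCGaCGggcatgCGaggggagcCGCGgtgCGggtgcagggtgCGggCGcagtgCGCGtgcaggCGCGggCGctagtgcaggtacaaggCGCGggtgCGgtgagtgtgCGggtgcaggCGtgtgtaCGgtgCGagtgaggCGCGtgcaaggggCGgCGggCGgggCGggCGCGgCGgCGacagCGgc
Camkk2, chr5:122779431-122779660, minus strand: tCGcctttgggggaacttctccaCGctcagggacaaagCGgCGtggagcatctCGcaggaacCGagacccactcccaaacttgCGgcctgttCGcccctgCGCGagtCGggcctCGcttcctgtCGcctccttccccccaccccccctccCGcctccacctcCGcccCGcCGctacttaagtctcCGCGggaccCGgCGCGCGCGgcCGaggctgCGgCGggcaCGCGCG
Camk1d, chr2:5714783-5715012, minus strand: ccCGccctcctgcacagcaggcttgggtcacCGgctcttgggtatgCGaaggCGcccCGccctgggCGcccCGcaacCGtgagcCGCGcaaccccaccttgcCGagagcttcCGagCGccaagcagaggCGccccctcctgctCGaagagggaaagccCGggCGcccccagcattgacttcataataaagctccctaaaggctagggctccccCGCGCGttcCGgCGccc
Camk1g, chr1:193370303-193370532, minus strand: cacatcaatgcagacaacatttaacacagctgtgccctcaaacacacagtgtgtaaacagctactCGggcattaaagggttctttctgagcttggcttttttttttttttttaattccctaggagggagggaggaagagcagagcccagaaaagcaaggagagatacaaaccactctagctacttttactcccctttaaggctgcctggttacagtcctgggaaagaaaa

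The windows of Camk2d and Camk2b lie inside the annotated genes, between exons of transcripts that start further upstream, and that of Camkk2 overlaps an exon of Gm43684 on the opposite strand. Promoter windows were found for 7 of the 10 genes (8 windows), and not for Camk2a, Camk2g and Camk4. The 5 sequences differ widely in CG content. Camk2b holds 38 CG pairs, more than 99% of the 32851 windows of the same length, Camkk2 holds 30 (more than 95.9%), and Camk2d and this window of Camk1d hold 22 each (more than 88.5%). Camk1g holds 1, more than 8.94% of the windows, and the median window holds 5. A second window of Camk1d, not shown, holds 5 (more than 47.4%). DNA methylation was not measured in these libraries. The motif TGACGTCA, the full cAMP response element, was in none of the 8 windows on either strand and in 1.28% of all windows, and TGANTCA, an AP-1 motif, was in none and in 6.34%. The shorter TGACG, which TGACGTCA contains, was in 2 windows, those of Camk1 and Camkk1, and in 15.9% of all.

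To compare levels between genes, TPM values were used, which are scaled for transcript length. In Control-shRNA baseline, Camk2b was highest at 532 ± 26.2 TPM (SD, n = 4), followed by Camk2a at 460 ± 16.3, Camk2g at 151 ± 16.4 and Camkk2 at 54.6 ± 6.48 TPM, and the ranges of these 4 genes did not touch. Below them came a tight group of Camk1d (42.5 ± 3.44 TPM), Camk1g (41.8 ± 2.87), Camk2d (41.6 ± 4.89), Camk4 (39.6 ± 6.66) and Camk1 (39.2 ± 3.04), in which each neighbour overlapped the next, and Camkk1 was lowest at 24.6 ± 2.38 TPM. The 4 CaMKII genes made up 83% ± 0.663 of the TPM of the 10 kinases. With bicuculline in Dnmt3a1-shRNA2, Camk2a (345 ± 28.1 TPM) stood above Camk2b (318 ± 12.9 TPM) in the order of means, with overlapping ranges, and Camk2d (52.2 ± 3.02 TPM) stood next to Camkk2 (52.7 ± 3.88 TPM).

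**Figure D1:**
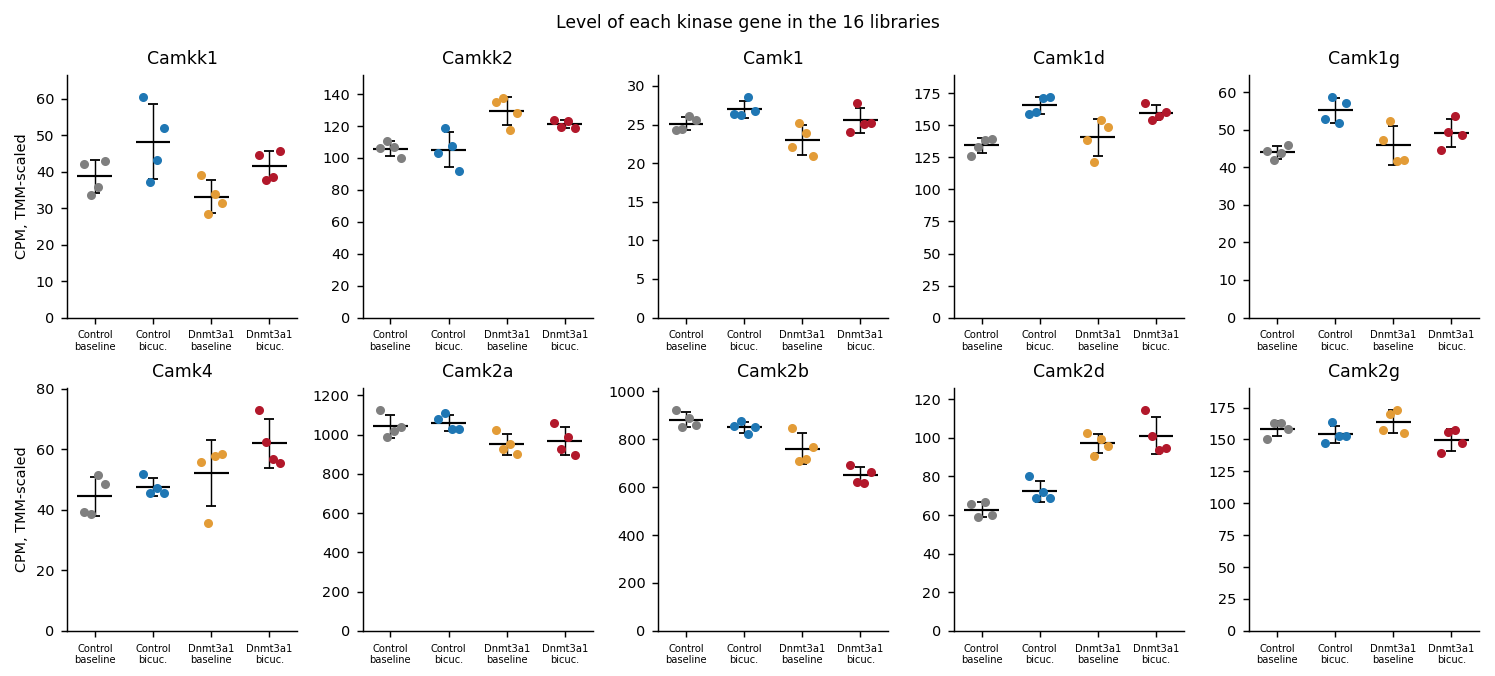
TMM-scaled CPM (y axis, from 0) of the 10 kinase genes in each library of Control-shRNA and Dnmt3a1-shRNA2 (written Dnmt3a1) in baseline and with bicuculline; points are libraries, bars the mean and the SD of 4. The Camk2d points of both Dnmt3a1-shRNA2 groups lie above both control groups, the Camk2b points of the bicuculline-treated Dnmt3a1-shRNA2 group lie below all others, and 1 baseline library of Dnmt3a1-shRNA2 is low for Camk4.

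Which of the kinases changed was asked of 1 edgeR quasi-likelihood fit of the 4 groups, with p-values adjusted by the Benjamini-Hochberg method over the 17222 genes (edgeR adjusted p), and a gene passed at an adjusted p under 0.05. The knockdown and the bicuculline comparisons share libraries, so the 4 are not independent. Dnmt3a1 knockdown in baseline changed 3 of the 10 kinases, Camk2d and Camkk2 upward and Camk2b downward, against 16.3% of all genes tested (8.12% higher and 8.19% lower). Their median absolute log2 change was 0.17, as in all genes tested (0.17). Knockdown with bicuculline changed 2 of 10, Camk2d upward and Camk2b downward, against 17.7% of all genes (7.69% higher and 9.99% lower), with a median absolute log2 change of 0.19 beside 0.19 in all genes. Over a log2 change of 0.5, the limit that the study's plots use, lay 1 of the 10 in baseline (Camk2d), against 5.83% of all genes, and 0 with bicuculline, against 5.89%.

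Camk2d, whose δ subunit is a minor part of CaMKII in forebrain neurons, changed most. In Control-shRNA baseline its levels were 65.8, 58.9, 66.7 and 59.8 CPM in replicates 1 to 4, and in Dnmt3a1-shRNA2 baseline 103, 90.8, 99.3 and 96 CPM. With bicuculline the control libraries had 80.4, 68.7, 71.7 and 68.9 CPM and the knockdown libraries 115, 101, 94 and 94.9 CPM. In both conditions all 4 knockdown libraries were above all 4 control libraries. The rise was 0.63 ± 0.07 on the log2 scale in baseline (log2 fold change ± SE, 1.55-fold, edgeR adjusted p = 1.64e-05) and 0.48 ± 0.07 with bicuculline (1.4-fold, edgeR adjusted p = 0.000216). It passed in each of the 25 alternative fits of either comparison, with log2 changes from 0.47 to 0.66 in baseline and from 0.34 to 0.53 with bicuculline.

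Camk2b encodes the β subunit, which anchors CaMKII to actin filaments in spines. Its levels in replicates 1 to 4 were 923, 853, 891 and 861 CPM in Control-shRNA baseline and 849, 710, 719 and 769 CPM in Dnmt3a1-shRNA2 baseline. With bicuculline they were 854, 879, 823 and 851 CPM in the control and 693, 623, 618 and 663 CPM in the knockdown. The knockdown libraries were lower in both conditions without overlap, by a narrow margin in baseline. Camk2b fell by 0.21 on the log2 scale in baseline (SE 0.06, edgeR adjusted p = 0.0248) and by 0.39 with bicuculline (SE 0.06, edgeR adjusted p = 0.000303). The baseline call was lost without Control-shRNA baseline replicate 1 (edgeR adjusted p = 0.0767) or 3 (0.0576), or without Dnmt3a1-shRNA2 baseline replicate 2 (0.0685) or 3 (0.0671), and without the filter on low counts (0.0763), with log2 changes of -0.21 to -0.18. With bicuculline it passed in all 25 alternative fits.

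The other CaMKII subunits did not pass after knockdown in the fit without the replicate number. Camk2a, the α subunit, was at 990 to 1126 CPM in Control-shRNA baseline and at 903 to 1022 CPM in Dnmt3a1-shRNA2 baseline, with overlap (log2 change -0.14, 95% interval -0.27 to -0.0026, edgeR adjusted p = 0.164), and its difference with bicuculline was -0.13 (edgeR adjusted p = 0.158). Scaling by library size alone, or use of log2(TPM + 1), put Camk2a past the threshold in both conditions, always lower in the knockdown. Camk2g, the γ subunit, was at 150 to 163 CPM in Control-shRNA baseline and 155 to 173 CPM in Dnmt3a1-shRNA2 baseline (log2 change 0.05, 95% interval -0.07 to 0.17), and differed by -0.04 with bicuculline (-0.16 to 0.08).

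Within the CaMKII family the shares of the subunits do not depend on the scaling of the library, and they are given here as a description. In Control-shRNA baseline, Camk2d held 3.25, 3.46, 3.84 and 3.47% of the summed TPM of the 4 CaMKII genes in replicates 1 to 4. In Dnmt3a1-shRNA2 baseline it held 5.45, 5.59, 5.94 and 5.81%. With bicuculline the mean share was 4.03% ± 0.465 in the control and 6.3% ± 0.424 in the knockdown (SD, n = 4), and in both conditions the knockdown range lay above the control range. The share of Camk2b went the other way, from 44.9% ± 0.216 to 41.3% ± 1.83 in baseline and from 44% ± 0.665 to 38.3% ± 1.76 with bicuculline, also without overlap. There were thus 12.9 ± 0.89 Camk2b transcripts for each Camk2d transcript in Control-shRNA baseline and 7.25 ± 0.503 in Dnmt3a1-shRNA2 baseline, and 11 ± 1.24 and 6.11 ± 0.554 with bicuculline. The ratio of Camk2a to Camk2b was 0.866 ± 0.0216 in Control-shRNA baseline and 0.927 ± 0.0582 in Dnmt3a1-shRNA2 baseline, with overlap, and with bicuculline 0.899 ± 0.0268 and 1.09 ± 0.0801, without overlap.

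**Figure D2:**
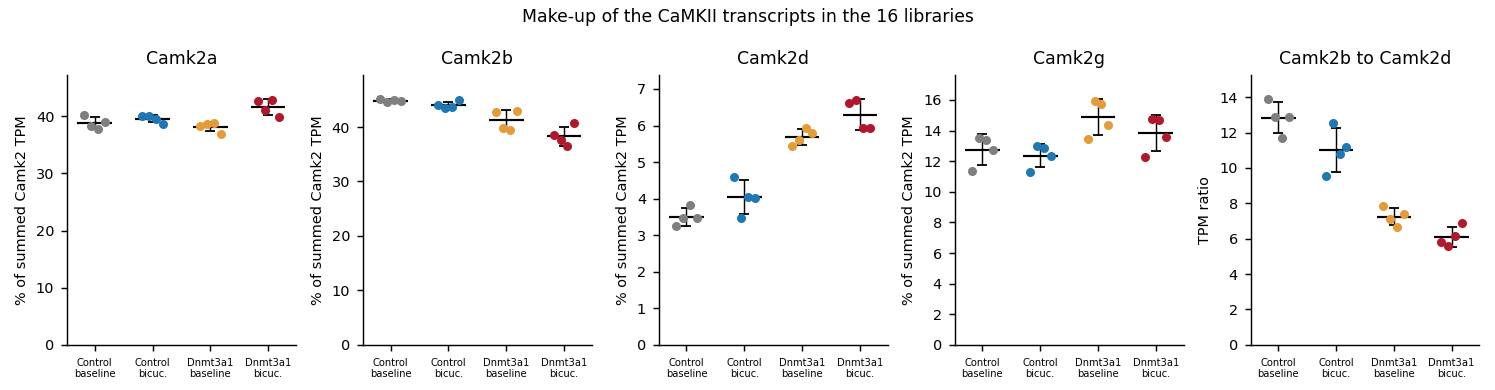
Share of each CaMKII gene in the summed TPM of the 4 CaMKII genes (y axis in percent) and the ratio of Camk2b to Camk2d TPM, by library in Control-shRNA and Dnmt3a1-shRNA2 (written Dnmt3a1), in baseline and with bicuculline, with mean and SD of 4. The Camk2d share is near 3.5 and 4% in the control groups and near 5.7 and 6.3% in the knockdown groups, and the ratio is lower in both knockdown groups without overlap.

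Of the upstream kinases, Camkk2 rose after knockdown in baseline. It was at 106, 111, 107 and 99.8 CPM in replicates 1 to 4 of Control-shRNA and at 135, 137, 117 and 128 CPM in Dnmt3a1-shRNA2, without overlap (0.29 ± 0.07 on the log2 scale, edgeR adjusted p = 0.00837). With bicuculline it was at 103, 119, 107 and 91.8 CPM in the control and at 124, 120, 123 and 119 CPM in the knockdown. These ranges did not overlap either, but were nearly touching, and the difference of 0.21 ± 0.07 missed the threshold (edgeR adjusted p = 0.0501). The baseline call was lost when libraries were scaled by their size alone (0.21, edgeR adjusted p = 0.0688) and on log2(TPM + 1) (limma, 0.18, adjusted p = 0.236), and the difference with bicuculline passed in 7 of the 25 alternatives. Camkk1 was lower in the knockdown without passing, at 28.3 to 39.1 against 33.7 to 43 CPM in baseline (log2 change -0.22, 95% interval -0.51 to 0.06, edgeR adjusted p = 0.295) and by -0.21 with bicuculline (-0.5 to 0.07, edgeR adjusted p = 0.295). Camkk2 outnumbered Camkk1 by 2.26 ± 0.486 to 1 in TPM in Control-shRNA baseline and by 3.24 ± 0.496 to 1 in Dnmt3a1-shRNA2 baseline, with overlapping ranges.

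None of the kinases that Camkk1 and Camkk2 act on passed after knockdown in the fit without the replicate number. Camk4 was at 38.6 to 51.4 CPM in Control-shRNA baseline and at 35.7 to 58.5 CPM in Dnmt3a1-shRNA2 baseline, where replicate 2 was far below the other 3 (log2 change 0.23, edgeR adjusted p = 0.298). Without that library Camk4 passed in baseline (0.37, edgeR adjusted p = 0.0259). With bicuculline it was at 51.9, 45.5, 47.3 and 45.4 CPM in the control and at 72.9, 62.5, 56.8 and 55.3 CPM in the knockdown, higher without overlap, but the difference of 0.38 ± 0.14 missed the threshold (edgeR adjusted p = 0.0639). It passed in 5 of the 25 alternatives. DESeq2 (adjusted p = 0.0322) and edgeR without the filter on low counts (0.0308) were among them. The others were edgeR with the replicate number as a block (0.0206), on the 2 groups alone (0.0157) and without Dnmt3a1-shRNA2 baseline replicate 2 (0.0126). Over all 25 the adjusted p was 0.0126 to 0.251. Camk1, Camk1d and Camk1g differed by -0.13, 0.07 and 0.06 in baseline and by -0.08, -0.05 and -0.17 with bicuculline, none of them passing. In baseline 3 of the 10 kinases had groups that did not overlap, against 20% of all genes, and with bicuculline 4 of 10 (Camk2b, Camk2d, Camk4 and Camkk2), against 20.9%.

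Same-numbered libraries of the 2 shRNAs deviated together from their group means in baseline (r of 0.204 to 0.355). With the replicate number as a block, 5 of the 10 kinases passed, against 27.5% of all genes. Camk2a (-0.14, edgeR adjusted p = 0.0292) and Camkk1 (-0.22, edgeR adjusted p = 0.0309) were added to the 3, both lower in the knockdown. With bicuculline r was 0.0667 to 0.388, and 5158 of 17222 genes passed with the block. Beside Camk2d and Camk2b, Camk2a (-0.14, edgeR adjusted p = 0.0275) and Camkk1 (-0.2, 0.0476) then passed as lower. Camk4 (0.38, edgeR adjusted p = 0.0206) and Camkk2 (0.21, 0.0108) passed as higher.

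**Figure D3:**
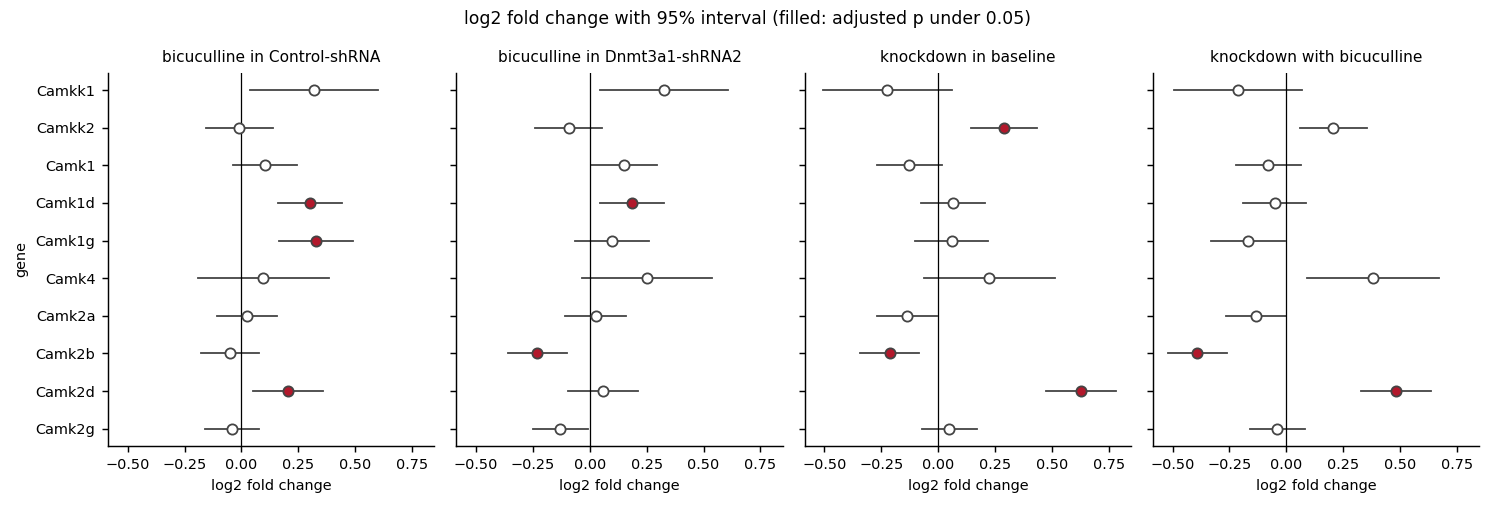
log2 fold change (x axis) of each kinase gene with its 95% interval in the 4 comparisons, from the edgeR fit; filled points have an adjusted p under 0.05. Camk2d stands at 0.63 and 0.48 in the knockdown comparisons and Camk2b at -0.21 and -0.39, and the filled points with bicuculline in Control-shRNA, Camk1d, Camk1g and Camk2d, lie between 0.21 and 0.33, where Camk2d turns to about -0.01 on log2(TPM + 1).

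Whether 4 h of bursting altered the transcripts of these kinases was asked within each shRNA. In Control-shRNA 3 of the 10 passed, all higher with bicuculline (Camk1d, Camk1g and Camk2d), against 41.4% of all genes tested (19.5% higher and 21.9% lower). Their median absolute log2 change was 0.1, beside 0.27 in all genes, and 0 of 10 passed with a change over 0.5, against 21.9%. In Dnmt3a1-shRNA2 2 of 10 passed, Camk1d upward and Camk2b downward, against 46% of all genes (20.8% higher and 25.2% lower), with a median absolute change of 0.14 beside 0.3, and again 0 of 10 passed over 0.5, against 25.8%. Each count rests on 10 genes, and whether it differs from the share of all genes was not tested.

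Camk1d encodes CaMKIδ, a member of the CaMKI group. It was at 127, 133, 139 and 140 CPM in replicates 1 to 4 of Control-shRNA baseline and at 159, 161, 171 and 172 CPM with bicuculline, and all 4 treated libraries were above all 4 untreated ones. It rose by 0.3 ± 0.07 on the log2 scale (1.23-fold, edgeR adjusted p = 0.00131), and in all 16 fits without 1 library it passed. In Dnmt3a1-shRNA2 it was at 139, 121, 154 and 149 CPM in baseline and at 168, 154, 157 and 161 CPM with bicuculline, a rise of 0.18 ± 0.07 (edgeR adjusted p = 0.0302). That rise was no longer past the threshold without replicate 1 or 2 of the baseline group (edgeR adjusted p = 0.066 and 0.103) or replicate 1 or 4 of the bicuculline group (0.0958 and 0.0716).

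Camk1g encodes CaMKIγ, a membrane-anchored kinase of dendrite growth. It was at 44.2, 41.9, 43.8 and 45.9 CPM in Control-shRNA baseline and at 52.8, 58.8, 51.8 and 57.1 CPM with bicuculline, without overlap, and rose by 0.33 ± 0.08 (1.25-fold, edgeR adjusted p = 0.00221). In Dnmt3a1-shRNA2 it was at 47.2, 52.4, 41.6 and 42 CPM in baseline and at 44.5, 49.5, 53.5 and 48.6 CPM with bicuculline. These groups overlapped, and the difference of 0.1 did not pass (95% interval -0.06 to 0.26, edgeR adjusted p = 0.321). Camk1, the third gene of the CaMKI group, was at 24.3 to 26.1 CPM in Control-shRNA baseline and 26.3 to 28.6 CPM with bicuculline, higher without overlap but not past the threshold (0.1, edgeR adjusted p = 0.243), and it differed by 0.15 in Dnmt3a1-shRNA2 (edgeR adjusted p = 0.0808).

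Camk2d rose with bicuculline in Control-shRNA by 0.21 ± 0.07 (edgeR adjusted p = 0.0316), from the baseline values given above, without overlap. This call was the least stable of the 3. It was lost without Control-shRNA baseline replicate 2 or 4 (edgeR adjusted p = 0.0968 and 0.0896), without bicuculline replicate 1 or 3 (0.125 and 0.0541), and without the filter on low counts (0.08). In Dnmt3a1-shRNA2 Camk2d differed by 0.06 (95% interval -0.1 to 0.21). Camk2b did not pass in Control-shRNA (-0.05, 95% interval -0.18 to 0.08), and in Dnmt3a1-shRNA2 it fell by 0.23 (SE 0.06, edgeR adjusted p = 0.00496), with all 4 treated libraries below all 4 untreated ones, and the call held in each of the 25 alternative fits.

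The remaining kinases did not pass with bicuculline. Camkk1 was at 33.7 to 43 CPM in Control-shRNA baseline and at 37.2 to 60.5 CPM with bicuculline (log2 change 0.32, 95% interval 0.04 to 0.6, edgeR adjusted p = 0.066), and differed by 0.33 in Dnmt3a1-shRNA2 (edgeR adjusted p = 0.0561). In Control-shRNA same-numbered libraries deviated together from their group means (r of 0.142 to 0.221). The fit with the replicate number as a block put Camkk1 past the threshold there (0.31, edgeR adjusted p = 0.00186). It called 4 of the 10, against 50.8% of all genes. In Dnmt3a1-shRNA2 r was 0.0631 to 0.337, and 9398 of 17222 genes passed with the block. Camkk1 (0.33, edgeR adjusted p = 0.00101) and Camk1 (0.15, 0.0467) were added as higher and Camk2g (-0.13, 0.0128) as lower. Camkk2 differed by -0.01 and -0.09, Camk2a by 0.02 and 0.03, Camk2g by -0.04 and -0.13, and Camk4 by 0.1 and 0.25, in Control-shRNA and Dnmt3a1-shRNA2. Groups that did not overlap were seen for 4 of 10 in Control-shRNA (Camk1, Camk1d, Camk1g and Camk2d), against 39.7% of all genes, and for 2 of 10 in Dnmt3a1-shRNA2 (Camk1d and Camk2b), against 40.4%.

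The calls with bicuculline depended on the scaling, except the fall of Camk2b in Dnmt3a1-shRNA2, which passed under all 4 scalings. By library size alone, the median log2 change of all genes moved from 0.0057 to -0.15 in Control-shRNA and from -0.008 to -0.16 in Dnmt3a1-shRNA2, and the share of calls that were higher went from 47 to 26.5% and from 45.2 to 28.3%. Camk1d (0.14, edgeR adjusted p = 0.143), Camk1g (0.17, 0.135) and Camk2d (0.04, 0.612) then no longer passed in Control-shRNA, and on log2(TPM + 1) Camk2d turned to -0.01. In their place Camk2a (-0.13) and Camk2b (-0.21) passed as lower, 2 of 10 against 45.2% of all genes. In Dnmt3a1-shRNA2 Camk1d lost its call as well (0.033, edgeR adjusted p = 0.761), and Camk2g (-0.28, 0.00824) and Camkk2 (-0.24, 0.012) joined Camk2b as lower, 3 of 10 against 49.1%. In the knockdown comparisons the median moved by less than 0.1, but the share of calls that were higher went from 49.8 to 26.9% in baseline and from 43.5 to 25.2% with bicuculline. Camk2a then passed as lower and Camkk2 no longer passed as higher, while Camk2d upward and Camk2b downward passed under all 4 scalings.

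**Figure D4:**
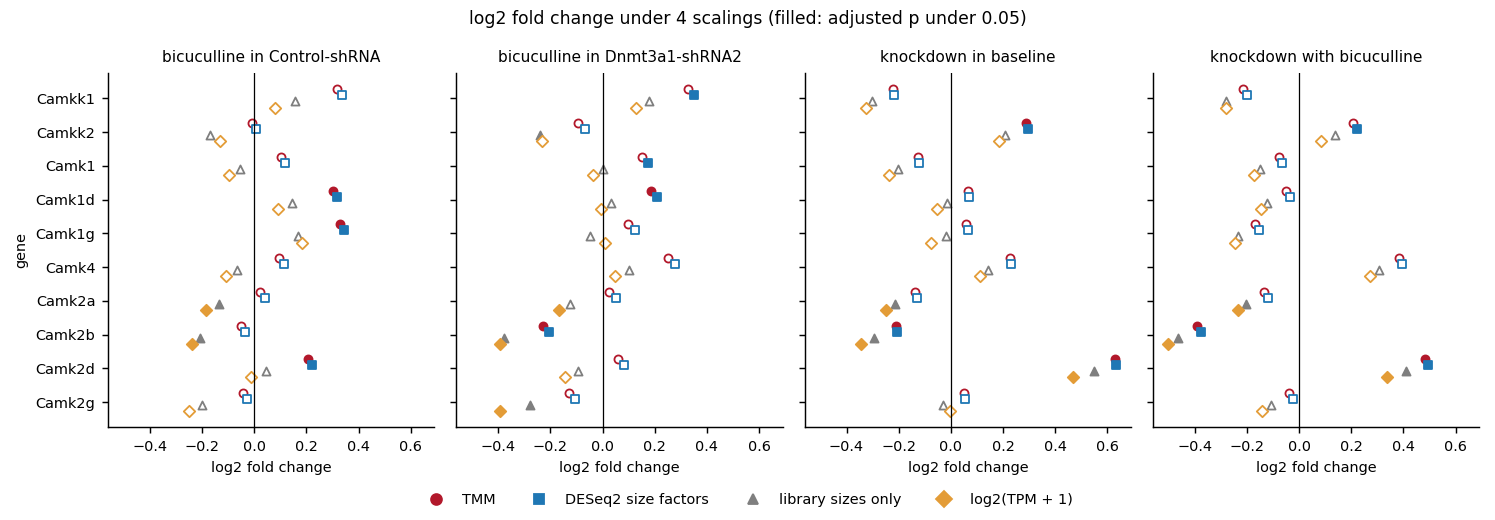
log2 fold change (x axis) of each kinase gene in the 4 comparisons under TMM, DESeq2's size factors, library sizes alone, and log2(TPM + 1) tested with limma; filled symbols have an adjusted p under 0.05. With bicuculline the last pair lies to the left of the first for nearly every gene, with Camk2d in Control-shRNA at 0.21 under TMM and at -0.01 on log2(TPM + 1), whereas Camk2d and Camk2b are filled under all 4 in both knockdown comparisons.

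Whether knockdown altered the response to bicuculline was tested by the interaction. With edgeR, 0 of 17222 genes passed at the adjusted p, and 852 (4.95%) had an unadjusted p under 0.05, none of them one of the 10 kinases. DESeq2 called 18 of the 17222 genes and voom with limma 0, and both called 0 of the 10 kinases. In edgeR 3 genes passed with the replicate block and 3 without the filter on low counts. The nearest were Camk1g, whose difference between the 2 responses was -0.23 (95% interval -0.46 to 0.00066, edgeR unadjusted p = 0.0506), and Camk2b, at -0.18 (-0.36 to 0.0033, edgeR unadjusted p = 0.0539), and both had an edgeR adjusted p of 1. Camk1g, called in Control-shRNA alone, and Camk2b, called in Dnmt3a1-shRNA2 alone, were therefore not shown to respond differently.

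The other genes of the pathway were taken as a list of 49 genes, of which 48 were tested. After knockdown in baseline 10 rose and 4 fell, against 8.12% and 8.19% of all genes tested. Their median log2 change was 0.09 beside 0.007 in all genes. After knockdown with bicuculline 9 rose and 2 fell, against 7.69% and 9.99%, with a median of 0.06 beside -0.0057. With bicuculline against baseline 13 rose and 11 fell in Control-shRNA, against 19.5% and 21.9% of all genes. In Dnmt3a1-shRNA2 13 rose and 10 fell, against 20.8% and 25.2%. These splits depended on the scaling. By library size alone 2 rose and 6 fell after knockdown in baseline and 3 rose and 6 fell with bicuculline. With bicuculline against baseline 6 rose and 16 fell in each shRNA. The shares of all genes under TMM also stand beside the counts of each role below, and no count was tested against them. Calm2 and Calm3, which encode calmodulin, rose after knockdown, by 0.24 and 0.21 in baseline (edgeR adjusted p = 0.0386 and 0.0296) and by 0.28 and 0.19 with bicuculline (0.0182 and 0.0408). By library size alone only the rise of Calm2 with bicuculline passed (0.21), and on log2(TPM + 1) neither gene passed, with both still above 0 in either condition. Neither passed with bicuculline in either shRNA. Gap43, a growth cone protein that binds calmodulin, rose in all 4 comparisons, by 0.26 and 0.29 after knockdown (edgeR adjusted p = 0.0373 and 0.0214) and by 0.23 and 0.26 with bicuculline (0.033 and 0.016), while Nrgn and Pcp4 passed in none. By library size alone only the rise of Gap43 after knockdown with bicuculline was left.

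Of the inhibitors of CaMKII, Camk2n2 rose in all 4 comparisons and Camk2n1 passed in none. Camk2n2 was at a mean of 124 CPM in Control-shRNA baseline, 197 CPM with bicuculline, 156 CPM in Dnmt3a1-shRNA2 baseline and 239 CPM with bicuculline. Its log2 change was 0.67 and 0.62 with bicuculline (edgeR adjusted p = 1.72e-05 and 2.99e-05), and 0.33 and 0.28 after knockdown (0.022 and 0.0467); the latter pair did not pass by library size alone (0.25 and 0.21). Ppm1f, a phosphatase that removes the activating phosphate from CaMKII, fell by 0.85 and by 1.07 with bicuculline (edgeR adjusted p = 1.68e-07 and 7.64e-09) and did not pass after knockdown, and its relative Ppm1e passed in no comparison.

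Among 10 tested kinases driven by calmodulin or related to the branch, 3 rose and 2 fell after knockdown in baseline and 2 rose and 1 fell with bicuculline. Camkv, a kinase-like protein of synapses without activity, rose by 0.29 and 0.27 (edgeR adjusted p = 0.00319 and 0.00478), and Dapk1, a death-associated kinase, fell by 0.28 and 0.31 (0.00734 and 0.00376). On log2(TPM + 1) Camkv did not pass in either condition (limma, 0.17 and 0.17, adjusted p = 0.121 and 0.112), while Dapk1 still passed as lower in both. With bicuculline 3 rose and 3 fell in each shRNA. Dclk3, a doublecortin-like kinase, fell by 1.75 in Control-shRNA and by 2.47 in Dnmt3a1-shRNA2 (edgeR adjusted p = 1.44e-07 and 1.55e-09), and Eef2k, the kinase of elongation factor 2, fell by 0.69 and 0.78 (3.29e-05 and 6.88e-06).

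Of 24 targets and anchors, 2 rose and 2 fell after knockdown in baseline, and 2 rose and 1 fell with bicuculline. Dlg4, which encodes the postsynaptic scaffold PSD-95, fell by 0.67 and 0.76 (edgeR adjusted p = 2.48e-07 and 5.52e-08), and the transcription factor gene Mef2a rose by 0.26 and 0.23 (0.00752 and 0.013), which did not pass by library size alone (0.17 and 0.16). With bicuculline 8 rose and 7 fell in Control-shRNA, and 8 rose and 5 fell in Dnmt3a1-shRNA2. Hdac5, a histone deacetylase that these kinases send out of the nucleus, rose by 0.71 and 0.65 (edgeR adjusted p = 6.07e-08 and 1.24e-07), and Creb1, a nuclear target, fell by 0.87 and 0.91 (2.83e-05 and 1.26e-05). Of the calcineurin subunits, the opposing phosphatase, 1 of 4 passed in any comparison, Ppp3cc, which fell by 0.34 with bicuculline in Dnmt3a1-shRNA2 (edgeR adjusted p = 0.00225). By library size alone, and on log2(TPM + 1), 3 of the 4 were lower past the threshold with bicuculline in each shRNA.

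These are bulk cultures, in which fewer cells of a type and less RNA per cell cannot be told apart. Of all genes tested, 8.12% rose and 8.19% fell after knockdown in baseline, and 7.69% and 9.99% after knockdown with bicuculline. With bicuculline against baseline the shares were 19.5% and 21.9% in Control-shRNA and 20.8% and 25.2% in Dnmt3a1-shRNA2. The marker counts were not tested against these shares. Of 8 general neuronal markers 2 rose after knockdown in baseline and 1 with bicuculline, and of 7 markers of excitatory neurons 2 and 3 rose. The summed level of the latter was 1557 to 1725 CPM in Control-shRNA baseline and 1492 to 1623 CPM in Dnmt3a1-shRNA2 baseline. Of 8 astrocyte markers 1 rose in each knockdown comparison, with median log2 changes of 0.4 and 0.42, and their sum was 701 to 903 CPM in Control-shRNA baseline and 714 to 1043 CPM in Dnmt3a1-shRNA2 baseline. With bicuculline 6 of 7 markers of GABAergic neurons rose in each shRNA, among them Gad1 and Gad2, whose products make the transmitter itself, and in Control-shRNA their sum went from 1759–2090 to 2590–2959 CPM. After knockdown 2 of the 7 fell in baseline and 0 passed with bicuculline, but 4 and 3 fell by library size alone, and 5 and 3 on log2(TPM + 1). Other lists also moved with bicuculline: in each shRNA 5 of 8 general neuronal markers rose and 1 fell, 3 of 7 markers of excitatory neurons rose and 1 fell, and 1 of 7 of the oligodendrocyte lineage fell. Of 6 markers of fibroblasts and vessels, 2 rose with bicuculline in Control-shRNA and 1 in Dnmt3a1-shRNA2, while 0 of 8 astrocyte markers and 0 of 2 microglial markers passed. Their part in the changes of the kinases was not tested. Of 7 markers of the oligodendrocyte lineage that were tested, 0 rose and 0 fell after knockdown, and Sox10 was too low to test. Of 6 markers of fibroblasts and vessels 1 rose in each knockdown comparison, and of 3 of proliferation 0 passed in any. The 6 microglial markers summed to 1.87 to 4.92 CPM over all libraries, and 4 of them were too low to test. Of the other 2, Csf1r fell in both knockdown comparisons, from a mean of 2.87 to 1.81 CPM in baseline and from 2.49 to 1.48 CPM with bicuculline. C1qa passed in neither, with log2 changes of 0.04 and -0.02 (edgeR adjusted p = 0.956 and 0.978).

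The genes whose log2 CPM followed a kinase most closely over the 16 libraries were sought for the kinase with the largest change in each of the 2 main comparisons, among the 13882 genes whose mean reached 1 CPM. For Camk2d they were A830018L16Rik (Pearson's r = 0.96), Polr2m (0.96) and Lsm11 (0.96), and these rose after knockdown in baseline, by 0.43, 0.23 and 0.71. For Camk1g they were Mcrip2 (r = 0.87), Uqcrc1 (0.87) and Arfrp1 (0.86), which rose with bicuculline in Control-shRNA by 0.4, 0.21 and 0.28. The points of each correlation share the libraries and their scaling, so r is given as a description. The genes were picked for likeness over the same libraries, so their change in the direction of the kinase largely follows from the choice.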

How the data were processed

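The authors trimmed the paired-end reads (100 bp, from 500 ng of RNA) with Trim Galore and quantified them with kallisto on GRCm38.p6. The processing notes give versions 0.6.4 and 0.4.6, and the paper's methods give a different version of kallisto. For each library they deposited an estimated count per gene, not scaled for depth or length. The deposited TPM values are scaled for transcript length and for the library total, without a correction for composition. Groups and replicate numbers came from the sample labels; the number of the knockdown construct came from the paper.

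The estimated counts were rounded and compared by edgeR (version 4.0.16, under R 4.3.3; TMM, edgeR's filter on low counts, 1 quasi-likelihood fit of the 4 groups, Benjamini-Hochberg over 17222 genes). CPM are TMM-scaled. The rule for named genes takes all 10 kinases, Dnmt3a, at most 3 genes per role of the pathway list with the smallest adjusted p in the comparison, and the 3 genes most alike in pattern to the kinase that changed most in the first bicuculline and the first knockdown comparison. The kinases and all lists were chosen with earlier results of these data known. The promoters to print, and the single markers named (Rbfox3, Cx3cr1, Csf1r, C1qa, Gad1, Gad2 and Sox10), were chosen after their values were seen. The test was checked on simulated counts.

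Same-numbered libraries deviated together from their group means, over 17222 genes, with r of 0.142 to 0.221 between the conditions in Control-shRNA and of 0.204 to 0.355 between the shRNAs in baseline. In the other comparisons 1 number was below 0.1 (0.0631 and 0.0667). The rest were at 0.125 to 0.337 with bicuculline in Dnmt3a1-shRNA2 and at 0.128 to 0.388 after knockdown with bicuculline. Whether a number marks a preparation shared between groups is not stated in the sources used here. In every group the mitochondrial share of the counts was highest in replicate 1 (4.75 to 6.6%) and lowest in replicate 3 (2.73 to 3.58%). The replicate block was left out of the test and added as an alternative. With the block, Camk2a and Camkk1 also passed after knockdown in both conditions, and Camk4 and Camkk2 after knockdown with bicuculline. Further alternatives were voom with limma 3.58.1, DESeq2 1.42.0, DESeq2's size factors, library sizes alone, no filter, limma on log2(TPM + 1) and log2(TPM + 0.1), the 2 groups compared only, fold thresholds, and each library left out in turn. Of 55385 identifiers, 55144 matched GENCODE M21 without the version. No statement of the use of strand was found in the sources used here. Each kinase had at least 608 counts in every library, and totals differed by under 3%. How far depth sets the precision was not tested. The values of 1 gene of the pathway list are not reported here.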

Additional observations from a re-analysis of the deposited data

Results flagged for a closer look

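Each of the 10 kinases was checked in each of the 4 groups for a library far from the other 3 (Dixon's test at the 95% level, 40 checks). Chance alone gives about 1 in 20. In 1 group a library stood apart. Camk4 in Dnmt3a1-shRNA2 baseline was at 35.7 CPM in replicate 2 and at 55.9 to 58.5 CPM in the other 3, a gap of 0.884 of the whole range. The other kinases of that library did not stand apart. Camk4 after knockdown in baseline had a log2 change of 0.23 with the library and 0.37 without it (edgeR adjusted p = 0.298 and 0.0259). No kinase had a response to bicuculline that differed between the shRNAs in edgeR's interaction test.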

How the results depend on the processing

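Calls were recomputed under 25 alternative fits. With a fold limit of 0.5 on the log2 scale 0 of 10 kinases passed with bicuculline in Control-shRNA, 0 in Dnmt3a1-shRNA2, 1 after knockdown in baseline and 0 after knockdown with bicuculline, and with a limit of 1 there were 0 in each. DESeq2 called 4 with bicuculline in Dnmt3a1-shRNA2 and 4 after knockdown with bicuculline, beside 2 and 2 in the edgeR fit. It called 7946 and 3439 of all 17222 genes in these comparisons. DESeq2's size factors in edgeR called 4 kinases in the former, against 7922 of all genes. Without 1 library the counts were 2 to 4 and 1 to 3 with bicuculline in the 2 shRNAs, 2 to 3 after knockdown in baseline and 2 to 4 with bicuculline. The count of 1 came without replicate 1 or 4 of Dnmt3a1-shRNA2 bicuculline, against 7443 of 17495 and 7242 of 17508 genes. The last 4 came without Dnmt3a1-shRNA2 baseline replicate 2, against 3303 of 17489 genes. With the replicate block 5 kinases passed after knockdown in baseline, against 4743 of 17222 genes. With the block 5 passed with bicuculline in Dnmt3a1-shRNA2, against 9398 of 17222 genes, and 6 after knockdown with bicuculline, against 5158. In the latter 2 comparisons r of same-numbered libraries was below 0.1 for 1 number. The block changed no other count by over 1.5 times. The cause of these moves was not tested.

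Of 1098 single values, 985 kept direction and side of the threshold, 27 lost and 47 gained a call, and 39 changed sign. Except for Camk1d and Camk2d on TPM, no gene that changed sign had passed. By library size alone the signs changed with bicuculline in Control-shRNA for Camk1 (-0.055), Camk2a (-0.13) and Camk4 (-0.065), in Dnmt3a1-shRNA2 for Camk1g (-0.046), Camk2a (-0.12) and Camk2d (-0.094), and after knockdown in baseline for Camk1d (-0.014), Camk1g (-0.020) and Camk2g (-0.030). On log2(TPM + 1) and log2(TPM + 0.1) they changed with bicuculline in Control-shRNA for Camk1 (-0.098 and -0.10), Camk2a (-0.18 and -0.18), Camk2d (-0.012 and -0.012) and Camk4 (-0.11 and -0.11), in Dnmt3a1-shRNA2 for Camk1 (-0.035 and -0.036), Camk1d (-0.0044 and -0.0042), Camk2a (-0.17 and -0.17) and Camk2d (-0.14 and -0.15), and after knockdown in baseline for Camk1d (-0.051 and -0.053), Camk1g (-0.074 and -0.076) and Camk2g (-0.0038 and -0.0038). Camkk2 with bicuculline in Control-shRNA was 0.0058 under DESeq2 and under its size factors. Without 1 library, Camk2a (-0.0014 to 0.062) and Camkk2 (-0.073 to 0.037) with bicuculline in Control-shRNA, Camk2a (-0.025 to 0.062) and Camk2d (-0.013 to 0.088) in Dnmt3a1-shRNA2, and Camk1g (-0.011 to 0.10) after knockdown in baseline changed sign. With 4 libraries a group, values close to 0 are resolved poorly.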
